A study of Mus musculus with 12 samples.

Results

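Ppp1r3c, the gene for a subunit that brings protein phosphatase to glycogen, was examined with 8 further genes of glycogen synthesis and breakdown in RNA sequencing of mouse pancreatic islets. The 9 genes are 9 of the 24421 in the deposited table, and all 9 passed the filter on low counts, as did 17411 genes in all. Control mice were Bmal1fl/fl, with both copies of the clock gene Bmal1 floxed. Knockout mice were Bmal1fl/fl RIPCreERT/+, in which the rat insulin promoter drives a Cre recombinase fused to an estrogen receptor fragment, so deletion is aimed at beta cells and the other islet cells keep the gene. Both genotypes therefore share the floxed allele, and controls carry no Cre. Mice received citrate buffer (vehicle) or streptozotocin (STZ), a toxin that enters beta cells, and islets were isolated 24 h later or, for STZ, also 4 wk later. Each of the 6 groups had 2 libraries, A and B. The labels give no age of the mice and do not tell if A and B are different animals. The p-values then rest only on how far A and B lie apart, which may be technical variation. All 4 vehicle libraries are labelled 24 h, so in a comparison of STZ at 4 wk with vehicle the treatment and the time cannot be told apart.

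Ppp1r3c was chosen by its level in the vehicle libraries, where it was among the largest differences between knockout and control. Its values in any comparison that uses those libraries are therefore a description with no test. The 8 other genes were chosen by their role in glycogen metabolism, and counts of glycogen genes past the threshold leave Ppp1r3c out, so they are over these 8 or, where named, over 1 of 2 further lists. The threshold is an adjusted p under 0.05 in edgeR's quasi-likelihood test over all 17411 genes, and levels are CPM, counts scaled to depth with TMM factors.

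Glycogen is the branched store of glucose in animal cells. Glycogen synthase lengthens its chains, a branching enzyme adds branch points, and glycogen phosphorylase releases glucose units as glucose 1-phosphate. Phosphorylation switches phosphorylase on and synthase off. The PPP1R3 proteins are glycogen-targeting subunits that hold protein phosphatase 1 on the glycogen particle, where it reverses both. Liver and muscle use different genes for the same steps, GYS2 and PYGL in liver and GYS1 and PYGM in muscle, with PYGB the brain form. Islets hold little glycogen under normal conditions, and beta cells have been described as storing it when glucose stays high.

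BMAL1 pairs with CLOCK and binds E-boxes, for which CACGTG is the canonical sequence, so promoters were searched for it. Of the 9 genes, 7 were matched to RefSeq promoters (GRCm38.p6, 250 bases before to 50 after the start). None was matched for Ppp1r3b and Gys2. CACGTG was found in the promoters of Ppp1r3c and Ppp1r3d and in 7.15% of all 32851 promoters of 300 bases. In Ppp1r3c it begins 104 bases before the start, and in Ppp1r3d it begins 226 bases before the start. The shorter ACGTG, the core that hypoxia-inducible factors bind, lies within every CACGTG. Searched on either strand, it was found in Ppp1r3c, Ppp1r3d, Pygb, Pygl and Pygm and in 19.6% of all promoters. It was not found in the windows of Gys1 and Gbe1. Only in Ppp1r3c among the 7 was there an ACGTG match outside a CACGTG as well as one within, 189 bases before the start. The 250 bases upstream of the genes with a CACGTG are shown 5′ to 3′ on the gene's strand, with matches to either motif on either strand in capitals.
Ppp1r3c, chr19:36736605-36736854, minus strand: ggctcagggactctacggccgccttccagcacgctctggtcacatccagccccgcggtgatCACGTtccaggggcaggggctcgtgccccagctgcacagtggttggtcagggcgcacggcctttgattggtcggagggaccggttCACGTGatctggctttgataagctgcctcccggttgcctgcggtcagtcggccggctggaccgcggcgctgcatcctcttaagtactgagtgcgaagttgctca
Ppp1r3d, chr2:178414464-178414713, minus strand: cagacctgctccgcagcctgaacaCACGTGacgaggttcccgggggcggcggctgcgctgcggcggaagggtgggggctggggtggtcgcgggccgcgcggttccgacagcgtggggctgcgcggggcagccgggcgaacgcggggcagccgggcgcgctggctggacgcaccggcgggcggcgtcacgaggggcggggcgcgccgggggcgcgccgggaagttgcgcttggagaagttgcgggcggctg

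Libraries held between 101772241 and 127207523 estimated counts, and TMM factors ran from 0.825 to 1.213. The beta-cell list (Ins1, Ins2, Iapp and 7 others) was lowest in a knockout library 24 h after STZ, at 22270 CPM. It was highest in a control library 4 wk after STZ, at 144000 CPM. The acinar list summed to between 35842 and 221087 CPM. It exceeded the beta-cell list in both libraries of control vehicle, knockout 24 h and knockout 4 wk, and was below it in the remaining groups. In knockout at 24 h the acinar sums were 204974 and 221087 CPM, against 22270 and 24855 CPM for the beta-cell list. Arntl, the gene for BMAL1, was not lower over the whole transcript in vehicle knockout libraries (17.8 and 19.9 CPM against 8.79 and 8.36 in control). After STZ it was below control, at 8.88 and 9.43 against 11.2 and 10.8 CPM at 24 h and at 11.3 and 11.6 against 20.6 and 20.4 CPM at 4 wk. Its exon 8, however, was covered at 0.627 to 1.37 times the mean of its transcript in the 6 knockout libraries against 1.56 to 1.99 in the 6 control libraries, and these ranges do not overlap. Which exon is floxed is not in the labels.

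Several marker lists of other cell types moved with the groups and touch most results. The 12 hepatocyte genes (Alb, Apoa1 and others) summed to 184 and 199.6 CPM in control vehicle libraries, 5851 and 5919 at 24 h and 1861 and 1623 at 4 wk after STZ. In knockout they summed to 4.79 and 4.98 under vehicle, 20821 and 20068 at 24 h, and 5931 and 5811 at 4 wk. The 10 macrophage genes (Lyz2, Cd68, Csf1r and others) stood at 66.7 to 122 CPM in the libraries of both vehicle groups and of control at 4 wk, at 195 and 199 in control at 24 h, at 1592 and 1608 in knockout at 24 h and at 339 and 399.9 in knockout at 4 wk. The 21 pan-endocrine genes (Chga, Pcsk2 and others) lay between 16741 and 27812 CPM in 10 libraries and at 6451 and 6550 in knockout at 24 h after STZ. The 10 acinar genes summed to 191609 and 174449 CPM in control vehicle and to 45065 and 35842 in knockout vehicle libraries, with 10 of 10 lower in knockout, as were 5 of 5 ductal genes. After STZ, 6 of 10 acinar genes were higher in knockout at 24 h and 3 at 4 wk, and 5 of 5 ductal genes at both times. The 6 intestine genes (Lct, Sis, Fabp2 and others) summed to 7871 and 6690 CPM in knockout at 4 wk, against 65.2 to 387 elsewhere. The 5 lymphoid genes summed to 236 and 235 CPM in knockout at 24 h, against 2.73 to 15.8 elsewhere. The part of these cells in the levels below was not tested. In bulk samples, fewer cells of a type and less RNA per cell cannot be told apart.

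Ppp1r3c (chromosome 19, 36731731 to 36736604, minus strand, mm10, 2 exons) was low in control vehicle islets, at 3.98 and 5.50 CPM, and high in knockout vehicle islets, at 49.97 and 60.3 CPM. Control libraries held 10.2 and 10.4 CPM at 24 h and 11.2 and 9.95 CPM at 4 wk after STZ. Knockout libraries held 23.0 and 20.3 CPM at 24 h and 59.9 and 46.7 CPM at 4 wk. Every knockout library was above every control library, also across conditions. In order of the group mean the levels ran from control vehicle (4.74 ± 1.07 CPM, SD, n = 2) to control 24 h (10.3 ± 0.185) and control 4 wk (10.6 ± 0.884), then knockout 24 h (21.6 ± 1.94), knockout 4 wk (53.3 ± 9.33) and knockout vehicle (55.1 ± 7.32). The libraries of both control STZ groups overlap, as do those of knockout vehicle and knockout 4 wk, and no other neighbours in that order do.

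**Figure D1:**
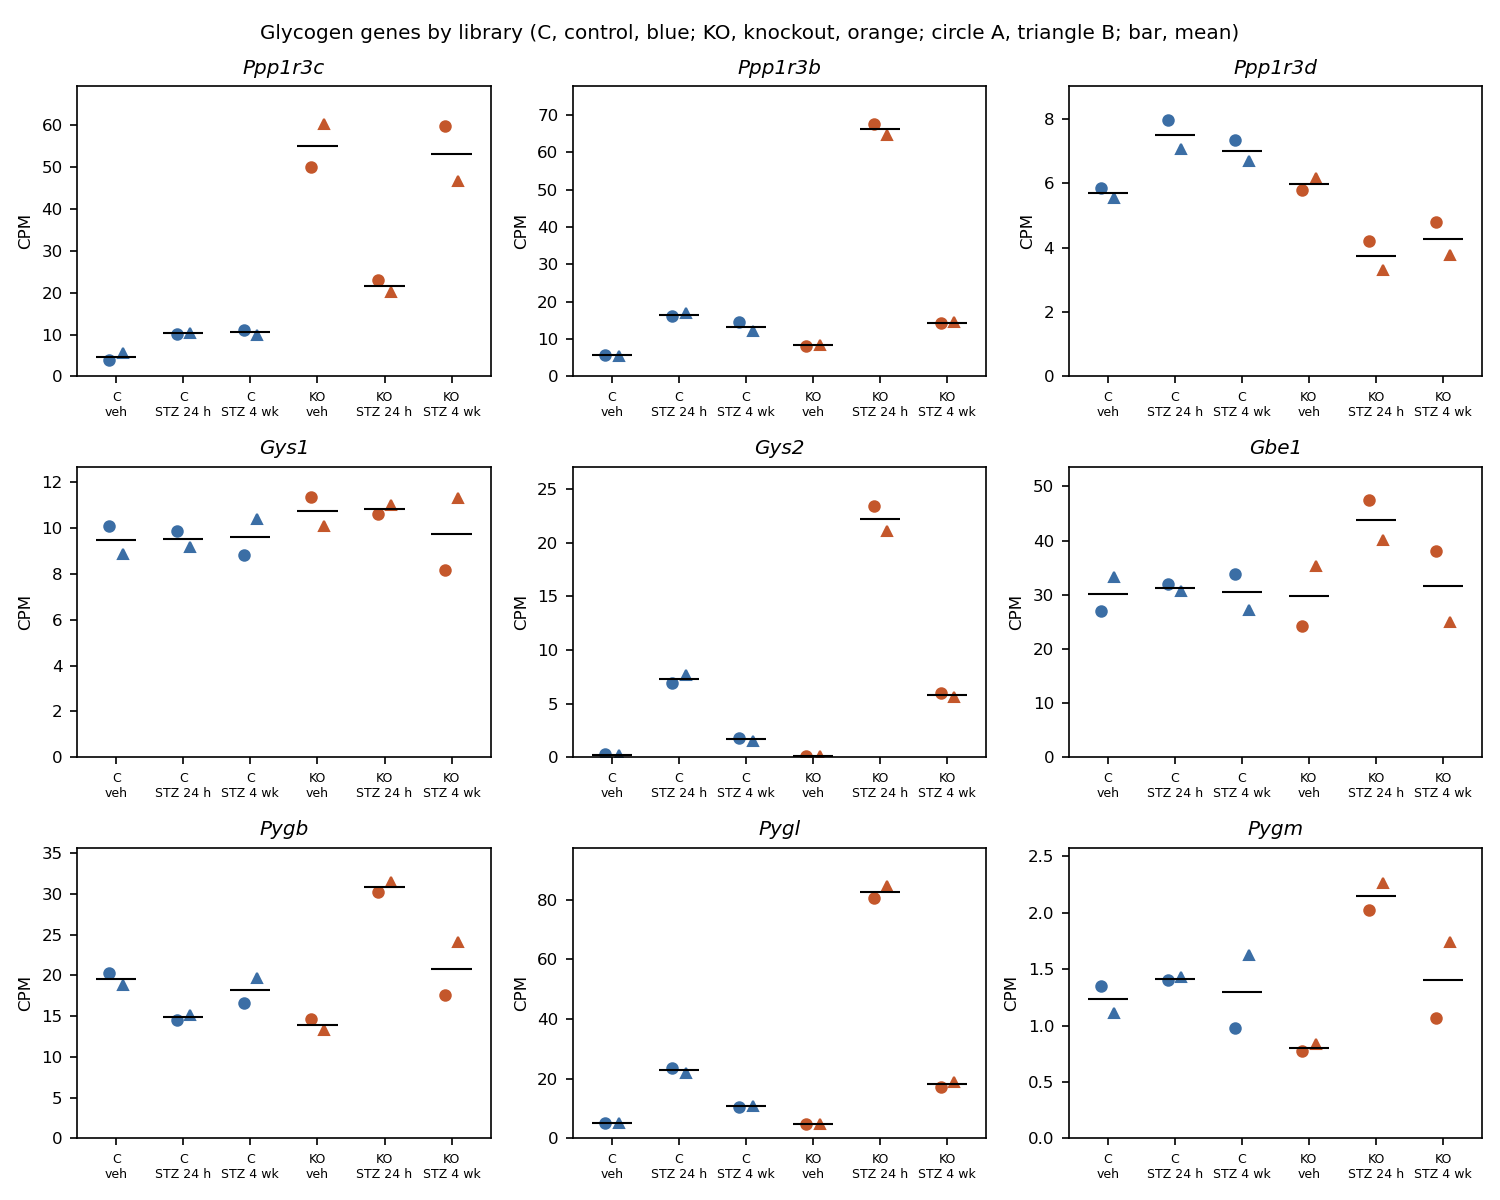
Level of each of the 9 genes (y axis, CPM, linear from 0) in every library by group (x axis; C, control; KO, knockout; veh, vehicle), with circles for A, triangles for B and bars for the mean. Ppp1r3c is higher in all 6 knockout libraries than in any control library, while Ppp1r3b, Gys2 and Pygl peak in knockout at 24 h after STZ.

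The genotype comparisons after STZ set other libraries against each other than those that chose the gene, although the vehicle libraries enter the shared estimate of spread. Ppp1r3c was higher in knockout at 24 h after STZ by a log2 fold change of 1.07 (2.10-fold, SE 0.19, adjusted p = 0.00179) and at 4 wk by 2.33 (5.04-fold, SE 0.19, adjusted p = 3.99e-05). The vehicle difference was 3.54 on the log2 scale (11.6-fold), given as a description. Leaving out each of the 12 libraries in turn kept both tested differences past the threshold, with adjusted p up to 0.0185 at 24 h and up to 0.000851 at 4 wk. Fitted without the vehicle libraries, on the groups compared alone, the values were 1.07 (SE 0.10, adjusted p = 6.84e-06) and 2.29 (SE 0.26, adjusted p = 0.00444). Beside the tested differences, 12 of 12 hepatocyte and 10 of 10 macrophage genes were higher in knockout at 24 h, and 9 of each list at 4 wk. Lower were 9 of 10 beta-cell and 19 of 21 pan-endocrine genes at 24 h, and 8 and 12 at 4 wk. The acinar and ductal lists were lower in knockout under vehicle, while 6 and 3 of 10 acinar and 5 of 5 ductal genes were higher after STZ. The intestine list was high in knockout at 4 wk. The part of these lists was not tested.

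Between 24 h and 4 wk after STZ, Ppp1r3c in knockout rose by 1.30 on the log2 scale (SE 0.19, adjusted p = 0.000859). Control showed a difference of 0.04 (SE 0.19, adjusted p = 1). The difference in knockout turned under a scaling to the 21 pan-endocrine genes, to -0.10 (SE 0.19, adjusted p = 0.656). Against vehicle, the log2 values at 24 h were 1.12 in control and -1.35 in knockout, and at 4 wk 1.16 in control and -0.05 in knockout. The knockout value at 24 h was 0.73 under the pan-endocrine scaling.

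The size of the genotype difference also depends on that reference, since the median of all genes at 24 h after STZ shifted by 1.88 on the log2 scale when the pan-endocrine genes were held equal. On that scaling Ppp1r3c was higher in knockout by 3.21 under vehicle (not tested), by 2.95 at 24 h (SE 0.21, adjusted p = 1.84e-06) and by 3.01 at 4 wk (SE 0.21, adjusted p = 7.96e-06). On total counts the values were 4.07, 0.82 and 2.24. The direction was the same in all 3 conditions under each scaling. Relative to endocrine transcripts the 3 values thus run from 2.95 to 3.21, and under TMM from 1.07 to 3.54.

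**Figure D2:**
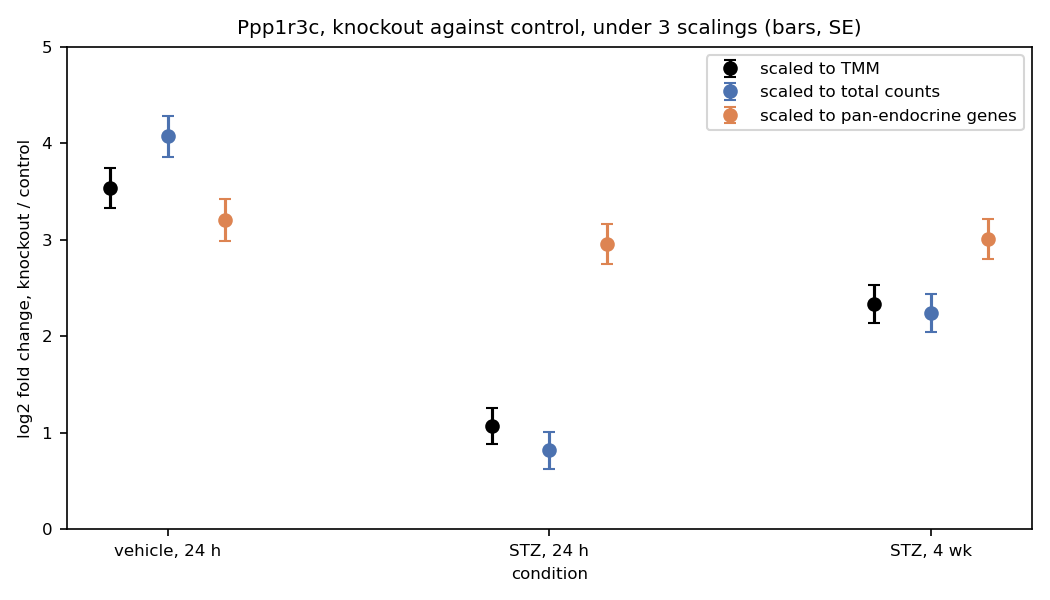
Log2 fold change of Ppp1r3c, knockout over control (y axis), in each condition (x axis) under scaling by TMM, by total counts and by the 21 pan-endocrine genes; points are estimates and bars their SE. Scaled to pan-endocrine genes the values are 3.21, 2.95 and 3.01, and by TMM they are 3.54, 1.07 and 2.33; the vehicle values are descriptions.

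Over the longer exon of Ppp1r3c the deposited mean depth per base ran from 10.3 to 38.9 in the control libraries and from 59.9 to 210 in the knockout libraries. Per length, in the deposited TPM (transcript abundance per length and depth), Ppp1r3c made up 17.7% ± 3.64 (SD, n = 2) of the summed TPM of the 5 detected targeting subunits (Ppp1r3b to Ppp1r3f) in control vehicle islets and 66.3% ± 2.50 in knockout vehicle islets. Its share was 24.9% ± 0.522 in control and 28.6% ± 1.19 in knockout at 24 h after STZ. At 4 wk it was 25.7% ± 1.22 in control and 66.9% ± 3.43 in knockout. The subunit with the largest share was Ppp1r3e in control vehicle islets (38.1% ± 0.869) and Ppp1r3b in knockout at 24 h after STZ (55.6% ± 0.943).

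Ppp1r3b, the targeting subunit best known from liver (chromosome 8, 35375741 to 35388137, plus strand), had another course. Control libraries held 5.78 and 5.55 CPM under vehicle, 16.2 and 16.9 at 24 h and 14.5 and 12.2 at 4 wk. Knockout libraries held 8.19 and 8.45 under vehicle, 67.6 and 64.7 at 24 h and 14.4 and 14.4 at 4 wk. The genotypes do not overlap under vehicle or at 24 h and overlap at 4 wk. Ppp1r3b was higher in knockout by 0.55 on the log2 scale under vehicle (SE 0.11, adjusted p = 0.0139) and by 2.00 at 24 h (4.00-fold, SE 0.11, adjusted p = 4.48e-06), with 0.11 at 4 wk (SE 0.11, adjusted p = 0.534). The vehicle call was lost when any of the 4 vehicle libraries was left out (adjusted p 0.0503 to 0.0937), under the pan-endocrine scaling (0.22, adjusted p = 0.242), and with only the groups compared (adjusted p = 0.166). With STZ at 24 h it rose by 1.54 in control (SE 0.11, adjusted p = 3.41e-05) and by 2.99 in knockout (SE 0.12, adjusted p = 1.61e-07).

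Ppp1r3d, a targeting subunit found in many tissues (chromosome 2, 178411206 to 178414463, minus strand, 1 exon), moved within a narrow range. Control libraries held 5.85 and 5.54 CPM under vehicle, 7.97 and 7.06 at 24 h and 7.34 and 6.69 at 4 wk. Knockout libraries held 5.79 and 6.16 under vehicle, 4.20 and 3.31 at 24 h and 4.79 and 3.76 at 4 wk. After STZ all 4 knockout libraries were below all 4 control libraries, and under vehicle the genotypes overlap. In knockout it was lower at 24 h (0.499 of the control level, SE of log2 0.18, adjusted p = 0.00204) and at 4 wk (0.609 of the control level, SE 0.18, adjusted p = 0.0171), with 0.07 under vehicle (adjusted p = 0.951). The 24 h difference turned to 0.88 under the pan-endocrine scaling (adjusted p = 0.00253). At 4 wk that scaling left -0.04 (adjusted p = 0.869), and with only the groups compared the adjusted p was 0.186. The 4 wk call was also lost without control 4 wk library A (adjusted p = 0.0856) or knockout 4 wk library B (adjusted p = 0.0794). Ppp1r3c and Ppp1r3d, both with a CACGTG upstream, had a Pearson r of -0.41 over the 12 libraries under TMM scaling. That is a description across libraries that share groups and include the vehicle libraries that chose Ppp1r3c. The part of the motif was not tested.

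Gys1, the muscle-type glycogen synthase (chromosome 7, 45434839 to 45456617, plus strand), lay between 8.16 and 11.3 CPM in all 12 libraries. The genotypes overlap at 4 wk, while under vehicle and at 24 h both knockout libraries were slightly above both control libraries. It passed the threshold in 0 of the 11 comparisons, and no difference exceeded 0.19 on the log2 scale (SE 0.18 to 0.25). Of its exon bases, 8.42% overlap Ruvbl2 on the other strand, and the file headers give strand-specific quantification. Under the pan-endocrine scaling Gys1 was higher in knockout at 24 h by 2.07 and at 4 wk by 0.68, beside shifts of the median gene of 1.88 and 0.67. On total counts its values there were -0.07 and -0.08.

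Gys2, the liver-type glycogen synthase (chromosome 6, 142422613 to 142473109, minus strand), was close to absent under vehicle. It held 0.305 and 0.171 CPM in control and 0.137 and 0.139 in knockout, from 15 to 28 estimated counts a library. All 12 libraries, the 4 vehicle ones included, were above the filter's cutoff of 0.0894 CPM. At 24 h after STZ it held 6.89 and 7.67 CPM in control and 23.4 and 21.0 in knockout, and at 4 wk 1.77 and 1.57 in control and 5.97 and 5.62 in knockout. The groups after STZ do not overlap each other or vehicle. With STZ at 24 h it rose by 4.93 on the log2 scale in control (SE 0.25, adjusted p = 4.20e-06) and by 7.32 in knockout (SE 0.28, adjusted p = 1.45e-07). Knockout was above control by 1.61 at 24 h (3.05-fold, SE 0.21, adjusted p = 0.000307) and by 1.79 at 4 wk (3.47-fold, SE 0.21, adjusted p = 0.000296).

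Counted per length, the liver-type share of synthase transcripts was higher in every STZ group than under vehicle. Gys2 made up 3.27% ± 0.988 of synthase TPM in control vehicle islets, 51.5% ± 3.17 at 24 h and 19.5% ± 3.24 at 4 wk after STZ (SD, n = 2). In knockout its share was 1.73% ± 0.167 under vehicle, 74.0% ± 1.95 at 24 h and 45.6% ± 6.76 at 4 wk.

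Gbe1, the branching enzyme (chromosome 16, 70313949 to 70569720, plus strand), passed in 0 of the 11 comparisons. Control libraries held 27.0 and 33.3 CPM under vehicle, 32.0 and 30.6 at 24 h and 33.8 and 27.2 at 4 wk. Knockout libraries held 24.2 and 35.3 under vehicle, 47.5 and 40.1 at 24 h and 38.1 and 25.1 at 4 wk. The genotypes overlap under vehicle and at 4 wk. At 24 h both knockout libraries were above both control libraries, by 0.49 on the log2 scale (SE 0.24, adjusted p = 0.144).

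Among the phosphorylases, Pygl, the liver form (chromosome 12, 70190815 to 70227683, minus strand), had the widest range. Control libraries held 5.17 and 5.25 CPM under vehicle, 23.6 and 22.0 at 24 h and 10.5 and 10.9 at 4 wk. Knockout libraries held 4.74 and 4.92 under vehicle, 80.8 and 84.5 at 24 h and 17.2 and 19.0 at 4 wk. No group overlaps another. Knockout was above control by 1.86 on the log2 scale at 24 h (3.62-fold, SE 0.10, adjusted p = 3.75e-06) and by 0.76 at 4 wk (SE 0.10, adjusted p = 0.00053), with -0.11 under vehicle (SE 0.10, adjusted p = 0.700). The 4 wk call was lost with only the groups compared (0.70, adjusted p = 0.119). Pygl at 24 h after STZ was above vehicle by 2.13 in control (SE 0.10, adjusted p = 2.94e-06) and by 4.10 in knockout (SE 0.11, adjusted p = 2.48e-08).

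Pygb, the brain form (chromosome 2, 150786796 to 150831748, plus strand), held 20.3 and 18.8 CPM in control vehicle islets, 14.5 and 15.2 at 24 h and 16.7 and 19.7 at 4 wk. Knockout libraries held 14.6 and 13.3 under vehicle, 30.3 and 31.5 at 24 h and 17.5 and 24.1 at 4 wk. At 24 h the knockout libraries stood above all others. Knockout exceeded control there by 1.06 on the log2 scale (2.08-fold, SE 0.16, adjusted p = 0.000843). Under vehicle the difference was -0.49 (SE 0.16, adjusted p = 0.110) and at 4 wk 0.20 (SE 0.16, adjusted p = 0.423). With STZ at 24 h Pygb rose in knockout by 1.15 (SE 0.16, adjusted p = 0.000332) and showed -0.40 in control (SE 0.16, adjusted p = 0.229).

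Pygm, the muscle form (chromosome 19, 6384429 to 6398459, plus strand), was the lowest phosphorylase, from 0.772 to 2.27 CPM. It passed only for STZ at 24 h against vehicle in knockout, from 0.772 and 0.834 to 2.03 and 2.27 CPM (log2 1.42, SE 0.32, adjusted p = 0.00466). The 10 skeletal muscle genes summed to 0.735 to 1.64 CPM over all libraries, with Mb, Myh1 and Myh4 at 0 counts throughout.

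Per length, Pygb was the main phosphorylase transcript under vehicle and Pygl the main one at 24 h after STZ. Pygb made up 69.2% ± 0.800 of phosphorylase TPM in control vehicle islets and 64.5% ± 2.22 in knockout vehicle islets (SD, n = 2). Pygl made up 65.0% ± 1.78 in control and 76.9% in knockout at 24 h, where both knockout libraries were nearly equal. At 4 wk Pygl stood at 42.4% ± 2.73 in control and 52.3% ± 4.10 in knockout.

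**Figure D3:**
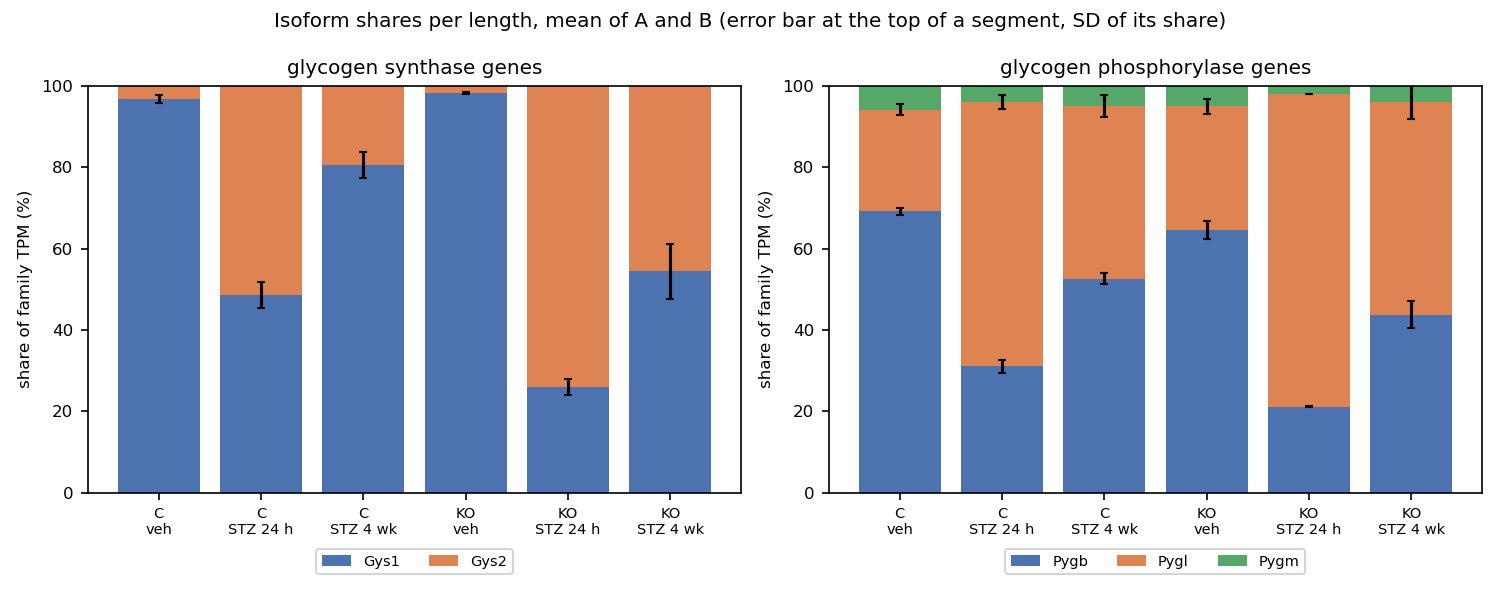
Shares of the summed TPM (y axis, %) of the glycogen synthase genes (left) and the glycogen phosphorylase genes (right) in each group (x axis; C, control; KO, knockout; veh, vehicle), as means of A and B with the SD of a segment at its top edge. Gys2 goes from 1.73% to 74.0% of synthase TPM in knockout between vehicle and 24 h after STZ, and Pygl from 30.5% to 76.9% of phosphorylase TPM.

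Over the 8 genes other than Ppp1r3c, the genotype comparison under vehicle had 1 gene higher in knockout (Ppp1r3b) and 0 lower, where 9.64% of all genes tested were called, with a median log2 of -0.06 against 0 for all genes. By DESeq2's Wald test 2 were called, where 2568 of 17746 genes were called. At 24 h after STZ, 4 were higher (Ppp1r3b, Gys2, Pygb and Pygl) and 1 lower (Ppp1r3d), where 43.0% of all genes were called, with a median of 0.83 against 0.00. At 4 wk, 2 were higher (Gys2 and Pygl) and 1 lower (Ppp1r3d), where 27.8% of all genes were called, with a median of 0.11 against 0.01. The pan-endocrine scaling moved these splits to 0 higher and 3 lower under vehicle and to 8 and 0 at 24 h. At 4 wk it gave 6 and 0. Of all 17411 genes, that scaling called 125 higher and 3195 lower under vehicle, and 14878 and 88 at 24 h. At 4 wk it called 8786 and 106. Total counts moved the vehicle split to 4 and 0, where 6221 of all genes were higher and 984 lower.

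**Figure D4:**
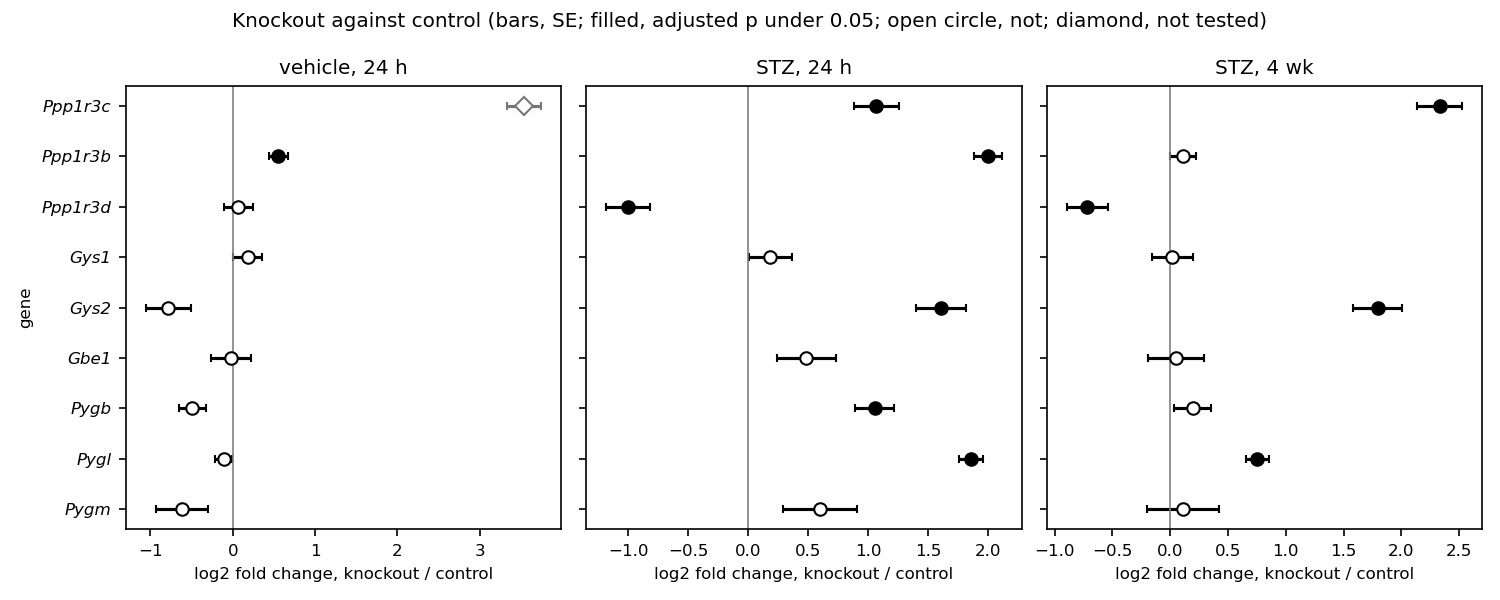
Log2 fold change, knockout over control (x axis), of the 9 genes (y axis) under vehicle, 24 h after STZ and 4 wk after STZ, with SE bars, from 2 libraries a group; x axes differ between panels. Filled points pass an adjusted p of 0.05, open circles do not, and the diamond is the untested vehicle value of Ppp1r3c; Ppp1r3c is to the right of 0 in all 3 panels.

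The STZ comparisons went mostly upward. In control, 3 of the 8 rose at 24 h (Ppp1r3b, Gys2 and Pygl) and 0 fell, where 7.56% of all genes were called, and in knockout 5 rose (Ppp1r3b, Gys2, Pygb, Pygl and Pygm) and 1 fell (Ppp1r3d), where 56.4% were called. With pan-endocrine scaling 8 rose and 0 fell in knockout, where 15039 of all 17411 genes rose and 74 fell. On total counts 5 rose and 2 fell, where 4085 of all genes rose and 7563 fell. The Ppp1r3d fall in knockout (log2 -0.67, SE 0.18, adjusted p = 0.0117) turned to 1.41 under the pan-endocrine scaling and did not pass without knockout vehicle library B (adjusted p = 0.0546) or knockout 24 h library B (adjusted p = 0.101), or with only the groups compared (adjusted p = 0.0600). At 4 wk against vehicle, the same 3 symbols rose in control, Ppp1r3b, Gys2 and Pygl, where 8.99% were called, and 4 rose in knockout, these and Pygb, where 35.9% were called. On total counts the knockout split was 3 and 1, where 3667 of all 17411 genes rose and 4409 fell. Gys2 was 6.98-fold higher in control and 41.7-fold higher in knockout at 4 wk than under vehicle, where it rests on 15 to 28 counts a library. With only the groups compared, the 4 wk calls in knockout of Ppp1r3b (adjusted p = 0.0652) and Pygb (adjusted p = 0.193) were lost. Pygb at 4 wk in knockout (log2 0.58, adjusted p = 0.0213) did not pass without knockout vehicle library B or knockout 4 wk library B (adjusted p = 0.115 in each case), or on total counts (adjusted p = 0.112). The control and knockout comparisons share no library, while the 24 h and 4 wk comparisons of a genotype share their vehicle libraries.

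From 24 h to 4 wk after STZ, Gys2 (log2 -2.12, adjusted p = 0.000568) and Pygl (log2 -1.09, adjusted p = 0.000342) fell in control, 2 of 8 with 0 rising, where 5.49% of all genes were called. In knockout 4 fell and 0 rose, where 35.7% were called. These were Ppp1r3b (log2 -2.20, adjusted p = 4.66e-06), Gys2 (-1.94, adjusted p = 0.000182), Pygl (-2.19, adjusted p = 3.15e-06) and Pygb (-0.57, adjusted p = 0.0236). The Pygb call was lost without any of knockout 24 h library A or B or knockout 4 wk library A (adjusted p 0.0779 to 0.108), on total counts (adjusted p = 0.110) and with only the groups compared (adjusted p = 0.104). Ppp1r3c moved the opposite way to these 4 in knockout under TMM scaling.

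Whether the STZ effect differed between genotypes was tested with an interaction term. At 24 h the effect was larger in knockout for Ppp1r3b (log2 1.45, SE 0.16, adjusted p = 0.000128), Gys2 (2.39, SE 0.34, adjusted p = 0.000653), Pygb (1.55, SE 0.23, adjusted p = 0.000763) and Pygl (1.97, SE 0.14, adjusted p = 1.31e-05), and lower for Ppp1r3d (-1.07, SE 0.26, adjusted p = 0.00978). These are 5 of 8 genes, where 37.7% of all genes were called. At 4 wk the effect was larger in knockout for Gys2 (2.58, SE 0.35, adjusted p = 0.000623) and Pygl (0.86, SE 0.14, adjusted p = 0.00193), 2 of 8, where 26.1% were called. The Pygl value at 4 wk did not pass on total counts (0.23, adjusted p = 0.205). With pan-endocrine scaling 8 values were positive and past the threshold at 24 h and 7 at 4 wk, with 0 negative. On total counts 4 were positive and 2 negative at 24 h, and 1 and 3 at 4 wk. Of all 17411 genes at 24 h, 13794 were positive and 59 negative under the pan-endocrine scaling. On total counts 2436 were positive and 7708 negative. The all-gene counts of the 4 wk interaction under these scalings are not reported here. For Ppp1r3c the corresponding values, given as a description, were -2.47 at 24 h and -1.21 at 4 wk under TMM, and -0.25 and -0.20 under the pan-endocrine scaling.

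The liver-type genes were set beside the hepatocyte list. Per 1000 CPM of that list, Gys2 stood at 0.953 to 1.30 CPM in the 8 STZ libraries and at 1.66 and 0.855 CPM in the control vehicle libraries. In the knockout vehicle libraries, where the list summed to under 5 CPM, the ratio was 28.6 and 27.9. Relative to vehicle, Pygl gained 2.26 to 3.81 CPM per 1000 CPM gained by the hepatocyte list over the 4 STZ groups. Ppp1r3b gained 1.04 to 4.96 CPM, a wider range than the 0.924 to 1.24 CPM of Gys2. Under vehicle the list was lower in knockout. There Pygl held 5.17 and 5.25 CPM in control and 4.74 and 4.92 in knockout, and Ppp1r3b 5.78 and 5.55 against 8.19 and 8.45. At 4 wk the level of Ppp1r3b per 1000 CPM of the list was 7.66 in control and 2.45 in knockout. The macrophage list rose in knockout at 24 h and 4 wk after STZ. The part of either list's cells in these levels was not tested. In the knockout vehicle libraries, Ppp1r3c was at 49.97 and 60.3 CPM and the hepatocyte list at 4.79 and 4.98. Ppp1r3c was chosen by its level in the vehicle libraries, so this is a description, and the source of its transcripts was not tested.

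**Figure D5:**
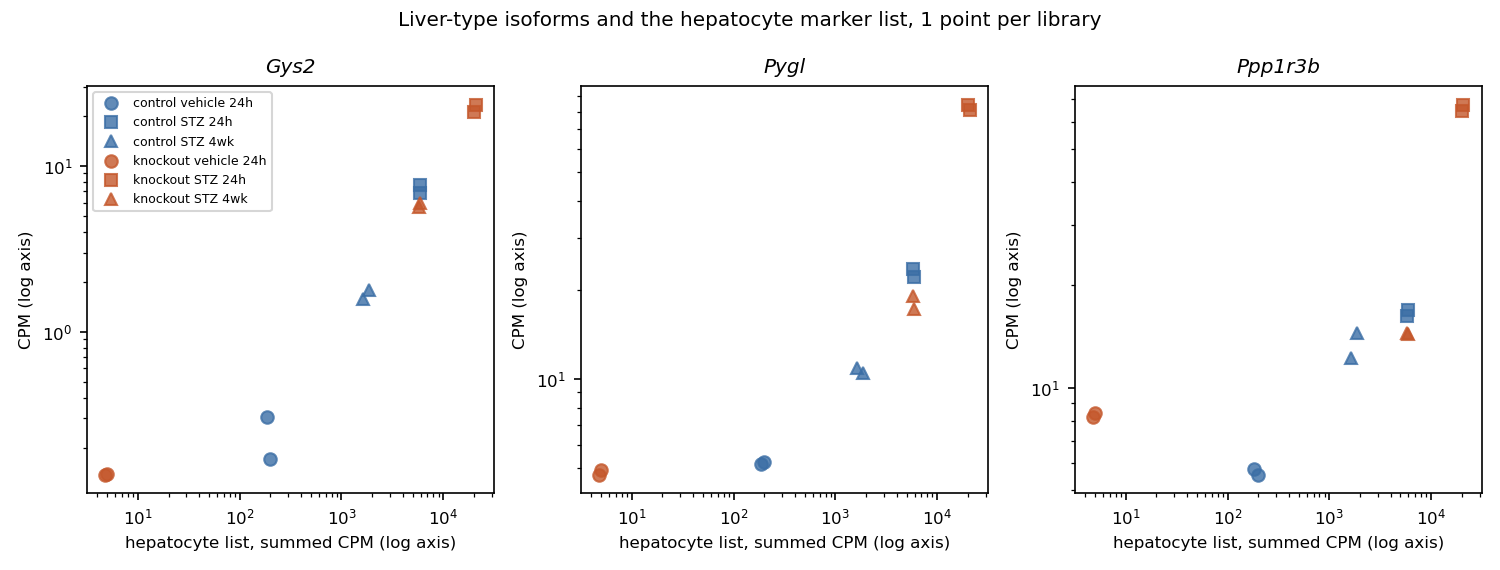
CPM of Gys2, Pygl and Ppp1r3b (y axes, log) against the summed CPM of the 12 hepatocyte genes (x axes, log), 1 point per library, blue for control and orange for knockout, circles for vehicle, squares for 24 h and triangles for 4 wk after STZ. Over the STZ libraries Gys2 stays at 0.953 to 1.30 CPM per 1000 CPM of the list.

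Of 23 other glycogen genes in the table, 21 were tested, and Ppp1r3a and Ppp1r3g, the muscle subunit and a further targeting subunit, were at or near 0 counts. Under vehicle, where 9.64% of all genes were called, 0 were higher in knockout and 1 was lower, Stbd1, a protein that ties glycogen to membranes for breakdown in lysosomes (log2 -1.07, SE 0.17, adjusted p = 0.00379). At 24 h after STZ, 3 were higher and 8 lower, where 43.0% of all genes were called. Stbd1 (log2 1.19, SE 0.17, adjusted p = 0.000481), the phosphoglucomutase gene Pgm1 (0.66, SE 0.10, adjusted p = 0.00085) and Ugp2, which makes UDP-glucose, were higher, the last named after its values were seen (1.12, adjusted p = 0.00927). Among the lower ones was Epm2a, the gene for the glycogen phosphatase laforin (-1.43, adjusted p = 0.00159).

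Stbd1 went from 5.08 and 5.58 CPM under vehicle to 10.02 and 10.4 at 24 h in control, and from 2.25 and 2.83 to 24.2 and 22.3 in knockout. It was the 1 gene of the 21 that passed for STZ at 24 h in control (log2 0.94, adjusted p = 0.00844). In control 7.56% of all genes were called. In knockout 4 rose and 9 fell at 24 h, where 56.4% of all genes were called. Those 4 were Stbd1 (log2 3.20, adjusted p = 1.07e-06), Pgm1 (0.68, adjusted p = 0.000459), Ugp2 (1.54, adjusted p = 0.00127) and Pgm2 (0.53, adjusted p = 0.00605), the latter pair named after their values were seen. With pan-endocrine scaling 20 rose and 0 fell, where 15039 of all 17411 genes rose and 74 fell. Among the 9 that fell under TMM was Phka1, a regulatory subunit of the kinase that activates phosphorylase (-1.42, adjusted p = 0.000263).

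At 4 wk after STZ, 4 of the 21 were higher in knockout and 2 lower, where 27.8% of all genes were called. Pgm1 rose most by adjusted p, from 21.5 and 20.2 CPM in control to 62.9 and 61.8 in knockout (log2 1.58, SE 0.10, adjusted p = 9.18e-06). In those knockout libraries the intestine list stood at 7871 and 6690 CPM, and its part in this was not tested. Stbd1 (1.11, adjusted p = 0.00114), Pgm2 (0.50, adjusted p = 0.0165) and Ugp2 (1.05, adjusted p = 0.0186) were also higher. Phka1 (-0.64, adjusted p = 0.0357) was among the lower ones, with Ugp2 and Phka1 named after their values were seen. The list's median log2 was 0.05 under vehicle, -0.22 at 24 h and -0.21 at 4 wk, against 0 to 0.01 for all genes. These splits depend on scaling, since with pan-endocrine genes held equal 19 were higher and 0 lower at 24 h, and 9 and 0 at 4 wk. Of all 17411 genes, 14878 were then higher and 88 lower at 24 h, and 8786 and 106 at 4 wk. On total counts 12 were higher and 1 lower under vehicle, where 6221 of all genes were higher and 984 lower. With pan-endocrine scaling the log2 values of Epm2a and Phka1 at 24 h flip to 0.45 and 0.91, and that of Phka1 at 4 wk to 0.03.

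Hypoxia-response genes, which rise in many cells when oxygen is low, were a further list. Of 20 tested, 0 were higher and 4 lower in knockout under vehicle, where 9.64% of all genes were called. Car9, a carbonic anhydrase (log2 -2.94, adjusted p = 0.000605), Ldha, a lactate dehydrogenase subunit (-1.11, adjusted p = 0.00457), and Egln3, an oxygen sensor (-1.19, adjusted p = 0.0139), were lower, as was Pfkfb3, named after its values were seen (-1.36, adjusted p = 0.0269). At 24 h after STZ 7 were higher and 4 lower in knockout (Vegfa, Ankrd37, Egln1 and Ndrg1), where 43.0% of all genes were called. At 4 wk 8 were higher and 2 lower (P4ha1 and P4ha2), where 27.8% were called, the lower ones at both times named after their values were seen. Ldha then stood at 248 and 344 CPM in knockout and at 29.0 and 33.3 CPM in control (log2 3.25, adjusted p = 6.02e-06). With pan-endocrine scaling 0 were higher and 6 lower under vehicle, 19 and 0 at 24 h, and 12 and 0 at 4 wk. Of all 17411 genes, 125 were then higher and 3195 lower, 14878 and 88, and 8786 and 106, in the same order. On total counts the split was 9 and 2 under vehicle, 6 and 7 at 24 h, and 8 and 2 at 4 wk. For all genes it was 6221 and 984, 3318 and 5183, and 3194 and 2037. Ldha, Car9 and Egln3 kept their directions in the genotype comparisons under total-count and pan-endocrine scaling.

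Ppp1r3c was also set beside genes outside glycogen metabolism. Glycogen genes are a small part of those compared, so top ranks outside them say little about glycogen. Over the 12 libraries and among 13150 genes with a mean of at least 2 CPM, the highest Pearson r of log2 CPM with Ppp1r3c included those of Npas2 (0.95), the paralog of Clock, Camk4 (0.95), a calcium-dependent kinase gene, Cry1 (0.95), a clock repressor gene, Esr1 (0.93), Asxl1 (0.92), Kcnk13 (0.90) and Slc22a15 (0.90). The libraries share 6 groups, so r mostly follows the group means. They include the vehicle libraries that chose Ppp1r3c, so r also follows the difference it was chosen for. The ranking is a description with no test. Npas2 went from 1.73 CPM in control vehicle islets to 19.5 in knockout vehicle islets, 5.70 in knockout at 24 h and 18.3 at 4 wk. Reads of Esr1 and of the receptor fragment in the CreERT transgene cannot be told apart here. The 8 glycogen genes chosen with it had r between -0.41 (Ppp1r3d) and 0.24 (Gys1), and the 21 of the longer list between -0.57 (Phka2) and 0.47 (Pgm1).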

How the data were processed

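Islet RNA of 12 libraries (6 groups of 2) was sequenced as stranded mRNA, per the labels. The authors deposited estimated counts (expected counts) per gene, unscaled for depth, and 1 transcript file per library with coverage, FPKM and TPM. Per the file headers, StringTie 1.3.6 quantified a fixed mm10 annotation with strand. The aligner was not given in the sources used here. All 108 deposited counts of the 9 genes matched coverage times length over 75, rounded up, within 1 count, while the labels give reads of 100 bases, so counts are not read numbers.

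Genes were tested in edgeR 4.0.16 (R 4.3.3) with TMM scaling, its expression filter, 1 quasi-likelihood fit of 6 group means (6 residual degrees of freedom) and Benjamini-Hochberg adjustment over 17411 genes. SEs were derived from the F statistic as the size of the log2 change over its square root. The script was tested on simulated data. Alternatives were DESeq2 1.42.0 (size factors, Wald test), total-count and pan-endocrine scaling, no filter, only the groups compared, a block on the library letter, and leaving out each library. Shares use the deposited TPM, with Python 3.11.15. Libraries held 101772241 to 127207523 counts. A and B differed beyond sampling noise in every group, but unequally. The chi-square over its degrees of freedom was 24.5 to 44.2 in control vehicle, control 24 h and knockout 24 h. It was 266 in knockout vehicle, 318 in control 4 wk and 462 in knockout 4 wk. The fit shares 1 estimate of spread per gene, so p-values can be too small where a group is wider than that.

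The genes and lists were chosen with earlier results of these data known. Named are the 9 genes, up to 4 other glycogen genes per genotype or STZ 24 h comparison and up to 3 hypoxia genes by adjusted p, and the 8 highest r with Ppp1r3c. Some results that this rule names are not reported here. Marker genes of other cell types were summed as CPM.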

Additional observations from a re-analysis of the deposited data

Results flagged for a closer look

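The effect of STZ differed between genotypes by the interaction term of edgeR's quasi-likelihood test for 7 results. At 24 h these were Ppp1r3b (log2 difference of the STZ effect, knockout minus control, 1.45, adjusted p = 0.000128), Ppp1r3d (-1.07, adjusted p = 0.00978), Gys2 (2.39, adjusted p = 0.000653), Pygb (1.55, adjusted p = 0.000763) and Pygl (1.97, adjusted p = 1.31e-05). At 4 wk they were Gys2 (2.58, adjusted p = 0.000623) and Pygl (0.86, adjusted p = 0.00193). In the groups compared the hepatocyte list differed in the same direction as the 6 positive values, by a median log2 of 8.07 at 24 h and 7.85 at 4 wk. It summed to only 4.79 and 4.98 CPM in knockout vehicle libraries. Its genotype median was -6.69 under vehicle, 1.82 at 24 h and 1.01 at 4 wk. Among other lists, acinar (3.08 and 2.57), ductal (3.82 and 3.13) and macrophage (3.12 and 2.05) also went that way. The beta-cell (-2.51 and -1.48) and pan-endocrine (-2.15 and -0.99) lists went the other way. The part of these lists was not tested. The value of Ppp1r3d turned to 1.15 under the pan-endocrine scaling.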

How the results depend on the processing

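The scaling reference mattered most. Of 99 results for single genes, 9 with pan-endocrine scaling and 3 with total counts changed sign and were tallied first. Among the 9, Ppp1r3c for STZ at 24 h in knockout is a description with no test. The others in this tally were past the threshold on at least 1 scaling. The other alternatives run had 0 in it. Sign changes outside this tally came 13 times with pan-endocrine scaling, 11 with total counts and 42 of 1188 when leaving out 1 library. They came 3 times with only the groups compared, 1 each with DESeq2's size factors, the Wald test and no filter, and 0 with the block. With pan-endocrine scaling, the log2 values of those 9 became 0.88 for Ppp1r3d between genotypes at 24 h, 0.73 for Ppp1r3c and 1.41 for Ppp1r3d for STZ at 24 h in knockout, 0.53 for Gys1 at 4 wk against vehicle in knockout, -0.10 for Ppp1r3c and -1.21 for Ppp1r3d from 24 h to 4 wk in knockout, 1.15 for the Ppp1r3d interaction at 24 h, and 0.56 for Ppp1r3b and 0.84 for Gys1 in the 4 wk interaction. With total counts the 3 became 0.43 for Pygl between vehicle genotypes, -0.47 for Gys1 with STZ at 24 h in knockout and -0.78 for the Gys1 interaction at 24 h. The median gene itself shifted by up to 2.20 in these fits.

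Counts of the 8 genes past the threshold also moved. Under vehicle 1 became 4 (total counts), 3 (pan-endocrine), 2 (Wald test) and 0 (only the groups compared). Of all genes, 1679 of 17411 became 7205 of 17411, 3320 of 17411, 2568 of 17746 and 940 of 15891. Pan-endocrine scaling gave 8 between genotypes at 24 h and 6 at 4 wk, where 14966 and 8892 of 17411 genes were called. It gave 7 at 4 wk against vehicle and 8 from 24 h to 4 wk in knockout, where 8994 and 13396 were called. The interactions gave 8 at 24 h, where 13853 were called, and 7 at 4 wk. With only the groups compared, 1 was called between genotypes at 4 wk, 5 for STZ at 24 h in control and 2 at 4 wk against vehicle in knockout. Of all genes, 2148 of 16748, 5571 of 16230 and 2979 of 16667 were called there. The 4 wk interaction gave 4 with total counts and 5 with the Wald test. Leaving out 1 library gave 0 to 2 between vehicle genotypes, 0 without control vehicle A or knockout vehicle A or B, and 2 to 4 in the 4 wk interaction, 4 without knockout 4 wk A. The cause was not tested.

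The library letters do not pair the samples by the labels. The correlations of A minus B between genotypes were 0.12, 0.05 and 0.48 under vehicle, at 24 h and at 4 wk. With the letter as a replicate block, 1, 5 and 3 of the 8 genes were called between genotypes, as without it, and the 4 wk interaction gave 3 against 2. Gys2 under vehicle rests on 15 to 28 counts a library.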
